A study of Mus musculus with 5 samples.

Results

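Genes that nearly all leukocytes express, for surface proteins and for regulators of the actin cytoskeleton, were examined in sorted dermal group 2 innate lymphoid cells (dILC2s) of wild-type (WT) and Rag1-/- mice. The 10 genes were *Ptprc*, *Cd53*, *Cd52*, *Laptm5*, *Coro1a*, *Lcp1*, *Arhgdib*, *Rac2*, *Vav1* and *Was*. They were named for their known expression in leukocytes. They and the lists compared with them were chosen with earlier results of these data known. The shares of all genes given beside them are thus a description and not a test. The 10 genes were found by their symbol among the 47729 genes of the count table. All 10 were among the 19011 genes that passed the filter on low counts. RNA was sequenced from freshly sorted skin cells without stimulation ex vivo in 5 libraries, 3 of WT (pools 5, 6 and 13) and 2 of Rag1-/- (pools 2 and 7). The WT and Rag1-/- mice, 30 and 16 per the labels, were young adult females on the C57BL/6 (B6) background, and each library was a pool of mice. The methods of the study give another number of Rag1-/- mice than the labels. Rag1-/- mice lack RAG1 in all cells and have neither mature T cells nor mature B cells, so the cells around the dILC2s differ as well as the dILC2s. The labels call the cell type of both Rag1-/- libraries innate lymphoid cells type 3, while the protocols of the same libraries and the study name dILC2s.

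The total counts were 32939428 to 39477243 in the WT libraries, 8050562 in Rag1-/- pool 2 and 38922750 in Rag1-/- pool 7. Levels are given in CPM, counts brought to the same total in every library, with library sizes scaled by the TMM method, and a count of 3, taken as the smallest that the depth can show, was 0.370 CPM in Rag1-/- pool 2 and 0.0763 to 0.0895 CPM in the other libraries, which covers counting error only. The *Rag1* transcript itself was counted 4, 0 and 5 times in the WT pools and 5 and 48 times in Rag1-/- pools 2 and 7 (log2 fold change 3.53, SE 1.03, adjusted p = 0.0866, edgeR). It was thus not lower in the libraries labelled Rag1-/-, and since the deleted part of the gene is not given in the sources used here, these counts do not check the labels. Markers of dILC2s were present in every library, with a summed level of 1207 to 2249.7 CPM over 12 genes in WT and 5485 and 3663 CPM in the libraries labelled Rag1-/-. The WT sums rested mainly on *Rora* (630 to 1175 CPM), *Thy1* (224 to 309 CPM) and *Gata3* (196 to 321 CPM). Others of the 12 were low in WT, such as *Il1rl1* (8.06 to 52.4 CPM) and *Klrg1* (0.127 to 1.20 CPM). The sum is thus no measure of the share of dILC2s. Keratinocyte markers were also present, with a summed level of 28787 to 41096 CPM over 14 genes in WT and 7329.5 and 17810.2 CPM in Rag1-/- pools 2 and 7. The libraries thus held RNA of other skin cells beside that of lymphocytes.

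All leukocytes carry a set of proteins that other tissues lack. CD45 is a receptor tyrosine phosphatase that controls Src family kinases, CD53 is a tetraspanin that organises other membrane proteins, and CD52 is a short peptide anchored to the membrane by a lipid. LAPTM5 lies mainly in lysosomal membranes and steers antigen receptors to breakdown. The actin regulators have different roles. VAV1 loads Rac proteins with GTP, RAC2 is the Rac protein of blood cells, and ARHGDIB keeps Rac proteins inactive in the cytosol. WAS (WASP) switches on the Arp2/3 complex that starts new filaments, CORO1A binds filaments and Arp2/3, and LCP1 (L-plastin) bundles filaments.

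The level of every one of the 10 genes was higher in both libraries labelled Rag1-/- than in any WT library. Of all genes tested, 23.1% showed this order, and 51.4% had a positive log2 fold change. By edgeR's quasi-likelihood test with Benjamini-Hochberg adjustment over all genes, 8 of the 10 passed an adjusted p of 0.05 with a log2 fold change above 1, against 3.57% of all genes tested, and *Ptprc* and *Cd53* did not pass. The median log2 fold change of the 10 genes was 1.95, and that of all genes tested was 0.02. Together the 10 genes took 0.0592%, 0.139% and 0.145% of the counts in WT pools 5, 6 and 13 and 0.451% and 0.401% in Rag1-/- pools 2 and 7. In bulk RNA of sorted cells, fewer cells of a type and less RNA per cell cannot be told apart.

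**Figure D1:**
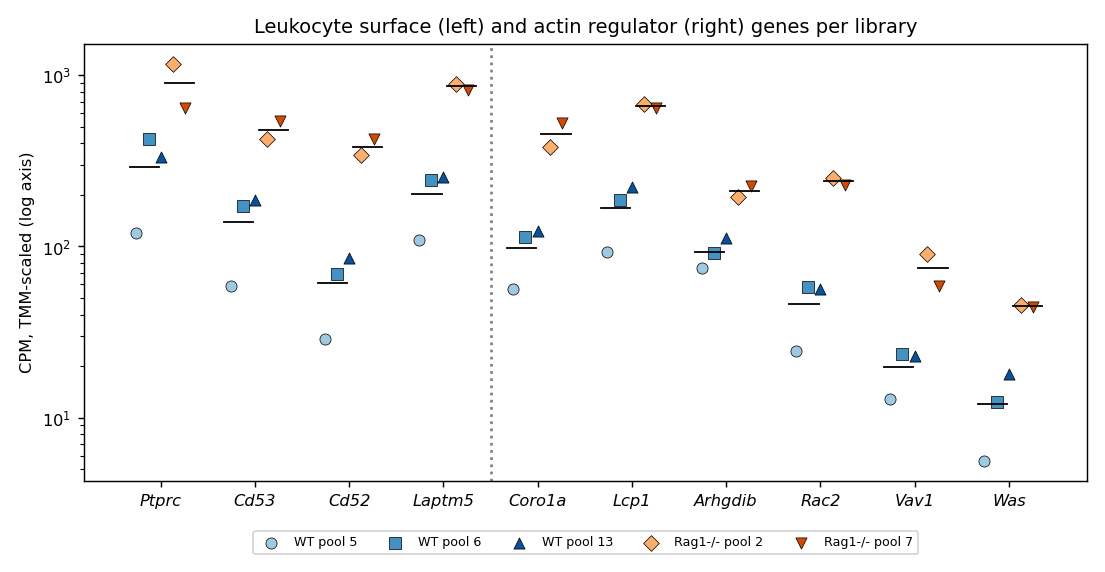
Level of the 10 genes in each library (CPM on TMM-scaled libraries, log axis), with membrane protein genes left and actin regulators right of the dotted line. Symbols are libraries and short lines are group means; for each gene both Rag1-/- libraries lie above the 3 WT libraries, as for *Was* with 44.6 and 45.7 CPM against 5.57 to 18.0 CPM.

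Among the genes for membrane proteins, *Ptprc* (GRCm38 chromosome 1, 138062861 to 138175708), which encodes CD45, had 120.2, 423 and 335 CPM in WT pools 5, 6 and 13 and 1167 and 646 CPM in Rag1-/- pools 2 and 7. The spread within the groups was wide, with a 3.52-fold distance between the highest and the lowest WT library and 1.81-fold more in Rag1-/- pool 2 than in pool 7. The group means were 293 ± 156 CPM (SD, n = 3) and 907 ± 369 CPM (SD, n = 2), a 3.10-fold difference that did not pass the test (log2 fold change 1.63, SE 0.51, adjusted p = 0.103, edgeR) but passed with DESeq2 (adjusted p = 0.0157). The flow cytometry of the study defined dILC2s among CD45-positive cells. Whether the sort for sequencing used this gate is not given in the sources used here.

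*Cd53* (chromosome 3, 106759921 to 106790149) had 58.7, 171 and 188 CPM in the WT pools and 423 and 541 CPM in the libraries labelled Rag1-/-. The means of 139 ± 70.4 (SD, n = 3) and 482 ± 83.5 CPM (SD, n = 2) differed 3.45-fold, and as for *Ptprc* the difference did not pass the test with edgeR (log2 fold change 1.79, SE 0.46, adjusted p = 0.0649) and passed with DESeq2 (adjusted p = 0.00303). In both genes WT pool 5 was far below the other WT pools.

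*Cd52* (chromosome 4, 134082448 to 134095082) had the greatest difference of the 10. It had 29.0, 69.3 and 86.2 CPM in WT and 343 and 422 CPM in the libraries labelled Rag1-/-, so that the lowest of the latter lay 3.98-fold above the highest WT library. The means were 61.5 ± 29.4 (SD, n = 3) and 382 ± 56.0 CPM (SD, n = 2), 6.22-fold apart (log2 fold change 2.64, SE 0.43, adjusted p = 0.0306, edgeR). *Cd52* shares 172 exonic bases with *Aim1l* on the opposite strand, and the library kit does not mark strand. *Aim1l* fell, with 131, 102.6 and 70.3 CPM in WT and 19.7 and 37.3 CPM in the libraries labelled Rag1-/- (log2 fold change -1.82, SE 0.37, adjusted p = 0.0398, edgeR), the opposite direction to *Cd52*. Of the other members, *Lcp1* shares 311 exonic bases with *Gm15628* and 219 with *Gm15629*, which had at most 1 count in any library, *Coro1a* shares 26 exonic bases with *Bola2* and *Arhgdib* shares 136 with *Pde6h*, which was at 0 to 2 counts in every library.

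*Laptm5* (chromosome 4, 130913125 to 130936141) was the most even of the membrane protein genes within the Rag1-/- group. Its levels were 109, 245 and 255 CPM in WT and 896 and 826 CPM in the libraries labelled Rag1-/-. The means of 203 ± 81.8 (SD, n = 3) and 861 ± 49.2 CPM (SD, n = 2) differed 4.24-fold (log2 fold change 2.08, SE 0.37, adjusted p = 0.0322, edgeR).

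All 6 actin regulators passed the test. *Vav1* (chromosome 17, 57279100 to 57328031) had 12.8, 23.4 and 22.8 CPM in WT and 90.6 and 59.1 CPM in the libraries labelled Rag1-/-. Its means were 19.7 ± 5.97 (SD, n = 3) and 74.8 ± 22.3 CPM (SD, n = 2). It rose by a log2 fold change of 1.93 (SE 0.32, adjusted p = 0.0306, edgeR). Of the Rag1-/- pools, pool 2 was the higher by 1.53-fold, the widest gap in this group of genes.

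*Rac2* (chromosome 15, 78559169 to 78572783), the GTPase that VAV1 can activate, had 24.6, 58.1 and 56.1 CPM in WT and 251 and 229 CPM in the libraries labelled Rag1-/-. Its means were 46.3 ± 18.8 (SD, n = 3) and 240.0 ± 15.3 CPM (SD, n = 2). The 5.19-fold rise was second to that of *Cd52* (log2 fold change 2.37, SE 0.36, adjusted p = 0.0306, edgeR).

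*Arhgdib* (chromosome 6, 136923655 to 136941899), the inhibitor among these genes, had the smallest difference of the 10. It had 74.7, 91.6 and 112 CPM in WT and 194 and 226 CPM in the libraries labelled Rag1-/-, the narrowest range within WT, with 1.49-fold between the highest and the lowest library. Its means were 92.7 ± 18.5 (SD, n = 3) and 210.0 ± 22.9 CPM (SD, n = 2), and the 2.27-fold rise passed the test (log2 fold change 1.18, SE 0.22, adjusted p = 0.0355, edgeR).

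*Was* (chromosome X, 8081453 to 8090498), the activator of Arp2/3, had the lowest CPM of the 10 in every library and the lowest group means per kilobase, with 5.57, 12.4 and 18.0 CPM in WT and 45.7 and 44.6 CPM in the libraries labelled Rag1-/-. The latter were nearly equal, while the WT libraries spanned 3.22-fold. Its means were 11.97 ± 6.20 (SD, n = 3) and 45.2 ± 0.803 CPM (SD, n = 2). The rise passed narrowly (log2 fold change 1.92, SE 0.43, adjusted p = 0.0482, edgeR) and did not pass on unscaled library sizes (adjusted p = 0.0510), in a robust fit (0.0512) or with all libraries thinned to the shallowest (0.0523).

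The filament-binding genes moved alike. *Coro1a* (chromosome 7, 126699773 to 126707787) had 56.2, 114 and 123 CPM in WT and 383 and 525 CPM in the libraries labelled Rag1-/-, with means of 97.9 ± 36.4 (SD, n = 3) and 454 ± 101 CPM (SD, n = 2). The 4.64-fold rise passed (log2 fold change 2.21, SE 0.36, adjusted p = 0.0306, edgeR). *Lcp1* (chromosome 14, 75131101 to 75230842) had 93.4, 187 and 224 CPM in WT and 680.0 and 643 CPM in the libraries labelled Rag1-/-, with means of 168 ± 67.2 (SD, n = 3) and 661 ± 26.4 CPM (SD, n = 2). It rose 3.93-fold (log2 fold change 1.98, SE 0.36, adjusted p = 0.0329, edgeR). *Coro1a* was higher in Rag1-/- pool 7 and *Lcp1* in pool 2.

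**Figure D2:**
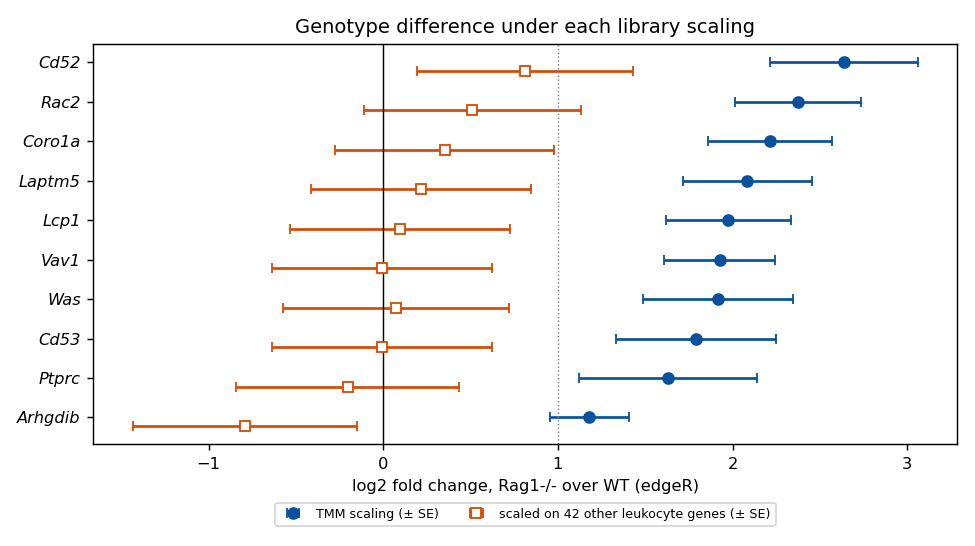
Log2 fold change of each gene, libraries labelled Rag1-/- over WT, with TMM scaling (filled circles) and with scaling on other leukocyte genes (open squares); error bars are the standard error, and the dotted line marks the threshold of 1. With TMM scaling the values run from 1.18 for *Arhgdib* to 2.64 for *Cd52*, and with the other scaling from -0.79 to 0.81 for the same genes.

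Calls depended on which library was left out. With any WT pool or with Rag1-/- pool 2 left out, 0 of the 10 genes passed with edgeR, as did 0 of all genes tested, while 10, 10 and 10 of the members had an unadjusted p under 0.05 without WT pools 5, 6 and 13 and 9 without Rag1-/- pool 2, against 19.2%, 20.2%, 20.9% and 25.8% of all genes tested in either direction. Without Rag1-/- pool 7, 7 passed, against 4.07% of all genes tested that passed as higher. With 1 Rag1-/- library left, that library is assumed to vary like the WT pools, which alone give the spread. The median log2 fold change stayed between 1.69 and 2.26 over these omissions, and with DESeq2 on all libraries 10 of the 10 passed, against 6.38% of all genes tested.

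The ratio between the groups was not the same for all members. The log2 fold changes had an SD of 0.40 among the 10 genes, and the medians of the 4 membrane protein genes (1.94) and of the 6 actin regulators (1.95) were nearly equal. Relative to the WT mean of each gene, the 10 genes lay on average 2.09 (SD among genes 0.43) higher in Rag1-/- pool 2 and 2.04 (SD 0.51) higher in pool 7 on the log2 scale, or 4.27-fold and 4.13-fold. In both libraries *Arhgdib* was the lowest and *Cd52* the highest of the 10. The WT libraries differed among themselves in the same quantity, with -0.80 (SD 0.24) in pool 5, 0.34 (SD 0.19) in pool 6 and 0.46 (SD 0.15) in pool 13. WT pool 5 had the lowest level for all 10 genes, and it also had the highest keratinocyte sum of the 5 libraries, 41096 CPM. The part of this RNA in the differences was not tested.

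To set the members against each other without a scaling of libraries, each log2 level was taken relative to the mean log2 level of the 10 genes in the same library. On this scale *Cd52* was higher in both libraries labelled Rag1-/- than in every WT library, with a difference of 0.70 between the group means, as were *Rac2* (0.40) and *Laptm5* (0.11). *Arhgdib* was lower without overlap, with a difference of -0.87. Of all genes tested, 0.626% were higher and 86.4% lower without overlap relative to the same mean. The members make up this mean, so their differences balance out by construction. Other genes are set against a mean that rose, so their shares are no background for the members. The other 6 genes overlapped between the groups, with differences of 0.21 for *Coro1a*, 0.00 for *Was*, -0.00 for *Lcp1*, -0.12 for *Cd53*, -0.12 for *Vav1* and -0.31 for *Ptprc*. An exact two-sided permutation test of 3 against 2 libraries has 10 splits and cannot go below 0.2, the p reached by each of the 4 genes without overlap.

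**Figure D3:**
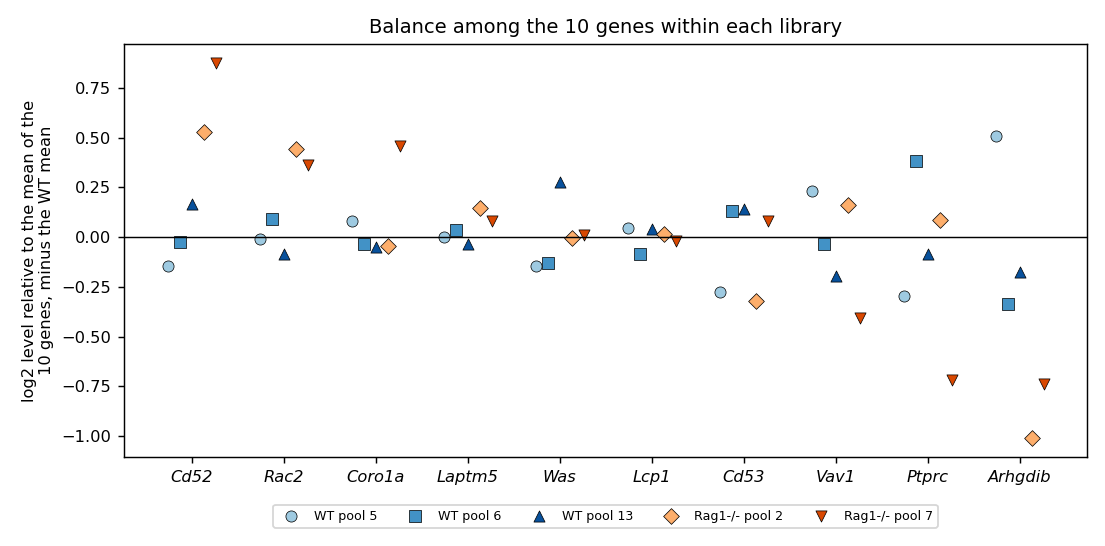
Level of each gene relative to the mean of the 10 genes in the same library (log2), minus its WT mean, with 1 symbol a library. *Cd52*, *Rac2* and *Laptm5* lie higher and *Arhgdib* lower in both libraries labelled Rag1-/- than in every WT library, while the symbols of *Was* and *Lcp1* overlap.

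The scaling of the libraries moved these genes and all others together. Scaled on the summed counts of 42 other leukocyte genes instead of on all genes, the median log2 fold change of all genes tested moved to -2.02 and that of the 10 members to 0.09. The values of *Ptprc* (-0.20, SE 0.64), *Cd53* (-0.01, SE 0.63), *Arhgdib* (-0.79, SE 0.64) and *Vav1* (-0.01, SE 0.63) were negative but did not pass (adjusted p = 0.248 to 0.990, edgeR). On this scale 0 of the 10 passed as higher with edgeR, as did 0.0842% of all genes tested. An unadjusted p under 0.05 (edgeR) was found for 0 of the 10, against 14079 of all 19011 genes tested in either direction. The genes behind this scaling rose much like the members, with a mean log2 level over WT of 2.04 and 1.81 in Rag1-/- pools 2 and 7 (41 genes, TMM scaling). It thus centres the members as well, and their SEs were 0.62 to 0.65 on it, so their calls on this scale are no test. The SD among the members was 0.43.

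Per kilobase of the longest coding transcript, the WT levels were highest for *Cd52* (119.6 ± 57.2 CPM per kb, SD, n = 3), followed by *Cd53* (80.04 ± 40.4), *Laptm5* (78.0 ± 31.5), *Arhgdib* (77.7 ± 15.5), *Ptprc* (57.7 ± 30.7), *Coro1a* (56.0 ± 20.8), *Lcp1* (43.8 ± 17.5), *Rac2* (15.2 ± 6.18), *Vav1* (6.64 ± 2.02) and *Was* (5.66 ± 2.93). Of the neighbours in this order, *Lcp1* and *Rac2* did not overlap in their WT libraries and neither did *Rac2* and *Vav1*, while the ranges of the others overlapped. Within each WT library, *Cd52* still lay above *Cd53* and *Coro1a* above *Lcp1*. In the libraries labelled Rag1-/- the level of *Cd52* was 743.9 ± 109 CPM per kb (SD, n = 2), that of *Laptm5* 331 ± 18.9 and that of *Cd53* 276.5 ± 48.0. *Arhgdib*, the fourth in WT, had 176 ± 19.2 CPM per kb there and lay beside *Ptprc* (178.7 ± 72.6) and *Lcp1* (172.2 ± 6.88), with overlapping libraries. *Vav1* and *Was* had the lowest mean levels in both groups also with other transcript lengths, while the order of the others moved with the length used.

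Most members belong to families with relatives that cells other than leukocytes express. The ratio of a member to its relative in the same library does not depend on scaling. In 15 pairs of 8 members, the log2 ratio was higher in both libraries labelled Rag1-/- than in every WT library, as it was for 84.6% of pairs of these members with any other gene tested. The difference between the group means had a median of 2.42 and ran from 0.49 for *Arhgdib* over *Arhgdia* to 3.92 for *Lcp1* over *Pls1*. *Pls1* was low, with 5.73 to 7.10 CPM in WT and 0.986 and 3.14 CPM in Rag1-/- pools 2 and 7. The log2 ratio of *Lcp1* to it was 9.34 in pool 2 and 7.67 in pool 7. Each pair reached an exact two-sided permutation p of 0.2, the smallest that 3 against 2 libraries allow, and pairs with the same member share its counts.

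Within the Rac pathway, *Rac1*, the Rac protein of most cells, had 196, 199.6 and 222 CPM in WT and 256 and 293 CPM in the libraries labelled Rag1-/- (log2 fold change 0.42, SE 0.19, adjusted p = 0.218, edgeR). In log2 ratios, *Rac2* over *Rac1* was -2.25 ± 0.65 (SD, n = 3) in WT and -0.19 ± 0.23 (SD, n = 2) under the Rag1-/- label, without overlap. *Arhgdia*, the broadly expressed relative of *Arhgdib*, had 296, 328 and 313 CPM in WT and 455 and 569.7 CPM in the libraries labelled Rag1-/- (log2 fold change 0.71, SE 0.21, adjusted p = 0.0835, edgeR). The log2 ratio of *Arhgdib* to *Arhgdia* was -1.77 ± 0.26 in WT (SD, n = 3) and -1.28 ± 0.07 (SD, n = 2), the narrowest difference of the pairs. The log2 ratio of *Vav1* to its relative *Vav3* was -2.63, -2.04 and -1.83 in WT, 0.81 in Rag1-/- pool 2 and -0.11 in pool 7, so that the Rag1-/- pools were also apart from each other.

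For the filament regulators, *Was* over *Wasl* (N-WASP) had a log2 ratio of -3.39 ± 0.94 (SD, n = 3) in WT and -0.98 ± 0.28 (SD, n = 2) under the Rag1-/- label. *Wasl* itself had 101 to 123 CPM in WT and 104 and 76.4 CPM in the libraries labelled Rag1-/-. The plastins differed most: *Pls3* fell from 336, 308 and 304 CPM in WT to 109 and 169 CPM (log2 fold change -1.19, SE 0.25, adjusted p = 0.0405, edgeR), the only one of the 15 relatives that passed. With edgeR 0 relatives passed as higher, where 3.57% of all genes tested passed as higher and 2.16% as lower. An unadjusted p under 0.05 in either direction (edgeR) was found for 6 relatives, against 5022 of all 19011 genes tested. With DESeq2 0 relatives passed as higher and 2 as lower, against 1213 and 1240 of all genes tested. The tetraspanin *Cd81* had 100.02 to 107 CPM in WT and 161 and 185 CPM in the libraries labelled Rag1-/- (adjusted p = 0.0580, edgeR), and *Cd53* over *Cd81* differed by 1.23 on the log2 scale. *Laptm4a* had 256 to 305 CPM in WT and 229 and 341 CPM in the libraries labelled Rag1-/-, while the log2 ratio of *Laptm5* to it went from -0.60 ± 0.77 (SD, n = 3) to 1.62 ± 0.49 (SD, n = 2).

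**Figure D4:**
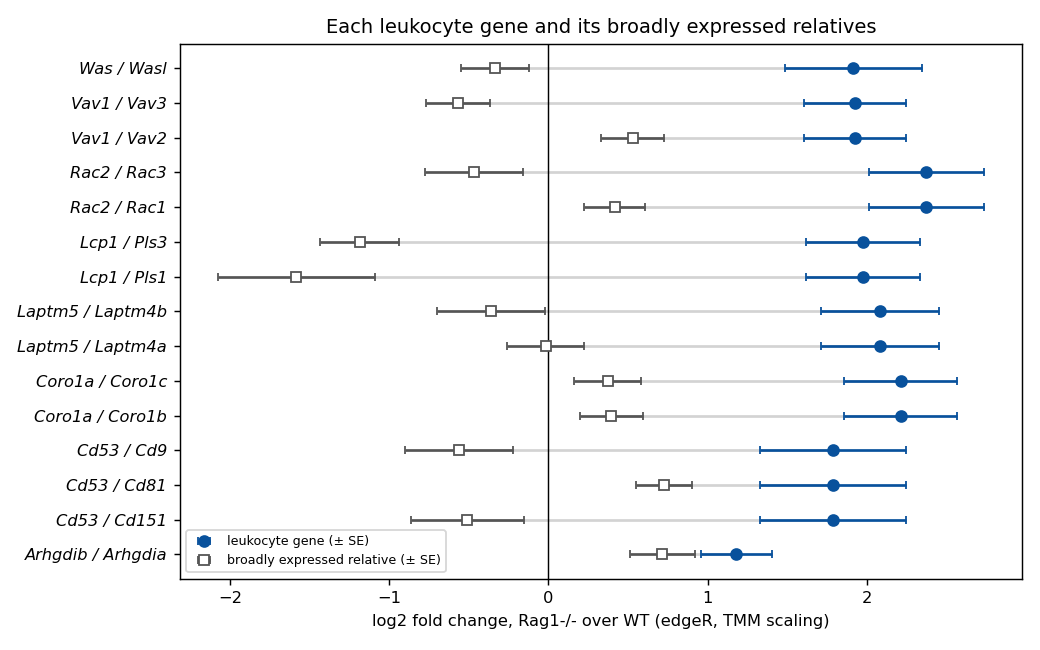
Log2 fold change, libraries labelled Rag1-/- over WT on TMM-scaled libraries, of each leukocyte gene (filled circles) and its relative (open squares) in 15 pairs. Error bars are the standard error, and a grey line joins the genes of a pair. In every pair the leukocyte gene lies to the right of its relative, most closely for *Arhgdib* (1.18) and *Arhgdia* (0.71).

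Other genes of the same kind were compared as lists. Of 19 other leukocyte surface and signalling genes tested, 12 passed as higher and 19 were higher without overlap. Of all genes tested, 3.57% passed as higher and 23.1% were higher without overlap. The median log2 fold change of the 19 was 2.10, among them the integrin chains *Itgb2* (2.10) and *Itgal* (2.51) and the tetraspanin *Cd37* (2.40). Of 22 other leukocyte regulators of actin, 14 passed as higher with a median of 1.85, among them *Hcls1* (2.44), which binds Arp2/3, the integrin activator *Fermt3* (1.93) and the filament-binding *Lsp1* (1.88). Of 35 genes of the actin machinery that most cells use, 3 (8.57%) passed as higher, *Twf2* (1.87), *Tmsb10* (1.62) and *Arpc3* (1.39). The median of that list was 0.39, with 24 positive values, where 51.4% of all genes tested were positive. Higher without overlap were 19 of the 35 and lower without overlap 5, against 23.1% and 22.4% of all genes tested. An unadjusted p under 0.05 in either direction (edgeR) was found for 15 of the 35, against 5022 of all 19011 genes tested. Scaled on the other leukocyte genes, 25 of the 35 genes of the actin machinery passed as lower, as did 13258 of all 19011 genes tested. The other leukocyte lists are themselves the base of that scaling, which centres them near 0, so their calls on it are no test.

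**Figure D5:**
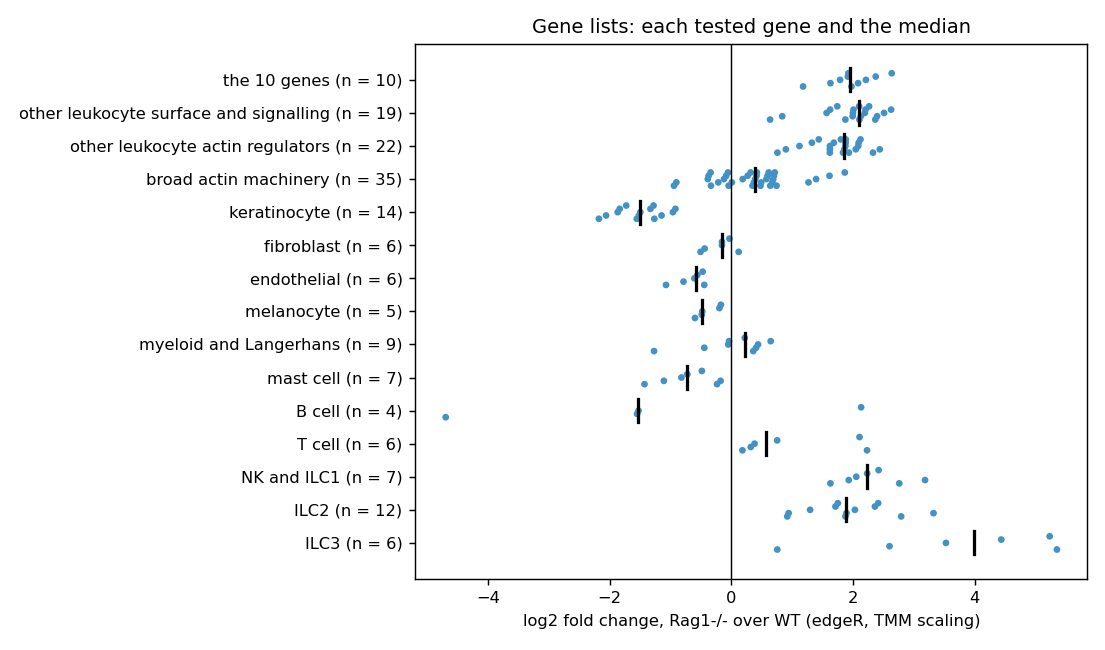
Log2 fold changes, libraries labelled Rag1-/- over WT on TMM-scaled libraries, for the 10 genes, other leukocyte genes, the actin machinery of most cells and markers of cell types, with 1 point a gene tested and a bar at the median of each list. The leukocyte lists have medians of 1.85 to 2.10, the actin machinery 0.39 and keratinocyte markers -1.51.

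Markers of cell types that the sort could hold moved in both directions beside these genes. Of 14 keratinocyte markers, 6 fell and 13 were lower without overlap, with a median log2 fold change of -1.51, where 2.16% of all genes tested fell and 22.4% were lower without overlap. The medians were -0.15 for 6 fibroblast, -0.58 for 6 endothelial, -0.48 for 5 melanocyte, -0.72 for 7 mast cell and -1.54 for 4 B cell markers. In these lists 0 genes passed with edgeR, and 0, 1, 0, 2 and 2 had an unadjusted p under 0.05, against 5022 of all 19011 genes tested. With DESeq2, 1 endothelial, 2 mast cell and 1 B cell marker passed as lower, against 1240 of all genes tested.

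Markers of other leukocytes bear directly on genes that all leukocytes express. Of 9 myeloid and Langerhans cell markers, 0 passed with edgeR and with DESeq2. An unadjusted p under 0.05 (edgeR) was found for 0 of them, against 5022 of all 19011 genes tested. Their sum was 382 to 922 CPM in WT and 422 and 871 CPM in the libraries labelled Rag1-/-. T cell markers summed to 37.6 to 55.0 CPM in WT and 124 and 109.7 CPM in the libraries labelled Rag1-/-, and 2 of 6, *Cd3g* and *Trac*, rose. *Cd3g* alone had 10.9 to 18.7 CPM in WT and 67.9 and 66.5 CPM in Rag1-/- pools 2 and 7. *Cd3d* (log2 fold change 0.38), *Cd3e* (0.32) and *Trdc* (0.18) overlapped between the groups. *Cd4* (0.75) was higher without overlap and did not pass. Of the lymphoid markers, 1 of 7 for NK cells and ILC1 (*Prf1*), 5 of 12 for ILC2 and 4 of 6 for ILC3 rose. Their median log2 fold changes were 2.23, 1.89 and 3.98. Of all genes tested, 3.57% rose by the same call. Higher without overlap were 7 of 7, 11 of 12 and 6 of 6 of these markers, against 23.1% of all genes tested. The ILC3 markers summed to 44.9 to 59.6 CPM in WT and 289 and 189.8 CPM in the libraries labelled Rag1-/-. The B cell gene *Pax5* was counted 93, 13 and 27 times in the WT pools and 0 and 2 times in Rag1-/- pools 2 and 7, and *Cd8a* 31, 0 and 2 times against 0 and 1. Another B cell marker, *Cd79b*, went the other way without passing the test, with 0.687, 0.433 and 0.358 CPM in WT and 3.82 and 0.772 CPM in Rag1-/- pools 2 and 7 (log2 fold change 2.14, SE 0.76, adjusted p = 0.134, edgeR). These directions are on TMM-scaled libraries, and with the libraries scaled on the other leukocyte genes the median of all genes was -2.02. The part of these cell types in the higher levels of the 10 genes was not tested.

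The genes outside all lists whose profile over the 5 libraries was most like the mean profile of the 10 members were *Cd96*, *Cass4*, *Dyrk3*, *Cnr2*, *Cd84*, *Kcnab2*, *Sla2* and *Klrb1b*. They were the nearest of 9872 genes with a mean of at least 10 CPM, at Euclidean distances in log2 CPM of 0.149 for *Cd96* to 0.300 for *Klrb1b*. Among the members, *Lcp1* (0.109) and *Laptm5* (0.142) were nearest to their own mean and *Arhgdib* (1.16) was farthest.

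The sequences before the start sites are shown because the members moved together while *Arhgdib* moved least. RefSeq windows on GRCm38.p6 were at hand for 8 of the 10 members, with 13 windows of 250 bases before a start, and *Cd52* and *Rac2* had no entry. The letters GAGGAA, the core of sites for the leukocyte factor PU.1, were found on either strand in 5 of the 13 windows, those of *Ptprc*, *Cd53*, *Laptm5*, *Vav1* and *Arhgdib*, and in 23.3% of all 32851 windows. CCGGAA, a core of other ETS factors that shares its last letters with GAGGAA, was in 1 window (*Coro1a*; 12.03% of all windows), the RUNX core TGTGGT or TGCGGT in 2 (*Cd53* and *Was*; 18.6%) and the GATA core AGATAA in 2 (*Ptprc* and *Arhgdib*; 9.99%). A match is a description of letters and not a site of binding.

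Below are the windows of *Cd53* (chr3:106790150-106790399, minus strand) and *Vav1* (chr17:57278850-57279099, plus strand), in which GAGGAA (capitals) begins at -39 and -11 from the start, and the outermost window of *Arhgdib* (chr6:136941900-136942149, minus strand), which held none of the motifs. All are written 5′ to 3′ on the strand of the gene.
Cd53: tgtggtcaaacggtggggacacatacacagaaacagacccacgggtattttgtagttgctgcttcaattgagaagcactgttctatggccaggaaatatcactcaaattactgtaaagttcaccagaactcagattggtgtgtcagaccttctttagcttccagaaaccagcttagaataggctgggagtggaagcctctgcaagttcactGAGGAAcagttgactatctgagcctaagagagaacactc
Vav1: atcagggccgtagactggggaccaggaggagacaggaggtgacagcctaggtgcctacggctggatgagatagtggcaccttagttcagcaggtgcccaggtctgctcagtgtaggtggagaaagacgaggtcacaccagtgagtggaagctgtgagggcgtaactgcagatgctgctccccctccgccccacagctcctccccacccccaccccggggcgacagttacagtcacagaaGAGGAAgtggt
Arhgdib: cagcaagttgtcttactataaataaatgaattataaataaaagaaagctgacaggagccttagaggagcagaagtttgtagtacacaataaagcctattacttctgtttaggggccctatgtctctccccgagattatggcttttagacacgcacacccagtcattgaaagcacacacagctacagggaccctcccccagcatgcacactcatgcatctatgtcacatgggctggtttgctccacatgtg
The genes with GAGGAA in a window had log2 fold changes of 1.79 (*Cd53*), 1.93 (*Vav1*), 2.08 (*Laptm5*), 1.63 (*Ptprc*) and 1.18 (*Arhgdib*, in another of its windows). Those without it had 2.21 (*Coro1a*), 1.98 (*Lcp1*) and 1.92 (*Was*), within or above that range.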

How the data were processed

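RNA of sorted dILC2s was sequenced from TruSeq v2 libraries, which do not mark strand. Alignment to GRCm38 by the authors used STAR (version 2.5), and the deposited whole-number counts per gene came from featureCounts (1.5.0-p1), with a gene length column beside them. The labels also name GRCm39, and the sources name different Ensembl releases. The deposited normalized table was not used.

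Groups were taken from the labels. The counts of all 5 libraries entered the quasi-likelihood test of edgeR 4.0.16 (R 4.3.3), after filterByExpr and TMM scaling, with genotype as the only term, and p-values were adjusted by Benjamini-Hochberg over all genes tested. Calls needed an adjusted p under 0.05 with a log2 fold change above 1 or below -1. CPM were computed on TMM-scaled library sizes. The pair ratios were log2 of counts plus 0.5. The p-values measure the spread between these pools only. Transcript lengths and overlaps were taken from GENCODE on GRCm38.

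The members and lists were chosen with earlier results of these data known. The genes named are the members, their relatives, genes that overlap a member, of each list the 3 with the smallest p or markers near 0 counts, and the 8 nearest profiles. The text gives a part of these. Alternatives were DESeq2 1.42.0, other scalings and filters, a robust fit, thinning, the adjusted p alone, a pseudocount of 2 and each library left out.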

Additional observations from a re-analysis of the deposited data

How the results depend on the processing

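No paired analysis was possible because the groups share no replicate numbers.

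With each library left out in turn, the number of members called ranged from 0 to 7, their median log2 fold change from 1.69 to 2.26 and the SD among them from 0.38 to 0.50. The number called ranged from 0 to 10 of the other leukocyte surface genes, 0 to 13 of the other leukocyte actin regulators and 0 to 2 of the actin machinery, and the median difference of the pair ratios ranged from 1.91 to 2.69. The fits without a WT pool or without Rag1-/- pool 2 called 0 of all genes tested, so that a lost call there is not particular to a member, while the fit without Rag1-/- pool 7, also of 4 libraries, called 814 genes as higher and 1595 as lower. The cause was not tested. Over all genes, edgeR called 679 as higher and 411 as lower, DESeq2 1213 and 1240, edgeR without a filter 1157 and 1488, with at least 10 counts in every library 856 and 641, and with the scaling on other leukocyte genes 16 and 13258.

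Scaled on the other leukocyte genes, 0 members, 0 of the other leukocyte surface genes and 0 of the other leukocyte actin regulators passed as higher, as did 0 of the actin machinery. The median of the members was 0.0857. The log2 fold changes of *Ptprc* (-0.204, SE 0.64), *Cd53* (-0.00835, SE 0.63), *Arhgdib* (-0.79, SE 0.64) and *Vav1* (-0.00933, SE 0.63) were negative but did not pass (adjusted p = 0.248 to 0.990, edgeR). This scaling applies the same factor to every gene of a library and centres the leukocyte lists it is built on. It also changes the SEs, as for *Arhgdib* with 0.22 on TMM scaling. The members moved with those lists, so their calls on this scale are no test.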
